A study of Daphnia magna with 20 samples.

Results

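Whole Daphnia magna exposed to ethylene acrylic acid copolymer particles were compared with Daphnia magna exposed to fumed silica at the same nominal particle number. The members are the libraries that the sample titles place in the nano_high and silica groups. They are 10 of the 20 libraries of the series, with 5 libraries in each group. The nano_high group received the copolymer at 2.3e12 particles per litre. The silica group received fumed silica at 2.3e12, a figure the series design gives without a unit. Both exposures ran for 21 days at 20 °C under 16 h of light and 8 h of dark, with 1 daphnid in each of 15 vessels per level and the dispersions renewed during the test. The other libraries are 5 vehicle controls, whose levels are also given to place each gene, and 5 libraries from a lower copolymer concentration of 2.3e11 particles per litre. Both sets enter the shared fit and its estimate of the spread.

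RNA came from pooled daphnids, and neither the number of animals per pool nor whether pools came from separate cultures is given in the sources used here. The p-values therefore measure the spread between these samples. The age at sampling is not settled, since the protocol is that of a chronic test and the stage label reads neonates. In RNA from whole animals, fewer cells of a type and less RNA per cell cannot be told apart.

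Daphnia magna is a freshwater crustacean that filters suspended particles from the water and passes them through a gut lined by a chitin-based peritrophic matrix. Females reproduce asexually, and yolk synthesis, brood release and moulting recur together in a cycle. Fumed silica is an amorphous mineral particle and the copolymer is a polyethylene-based plastic, so the groups differ in the material of the particle at an equal nominal number.

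The libraries differed in depth. Totals ran from 39087882 to 95906857 estimated counts in the nano_high group and from 7912434 to 54862334 in the silica group, a 2.68-fold difference of means (exact two-sided permutation test, p = 0.0317, where 0.00794 is the smallest p that 252 arrangements allow). Without silica 1 the difference was 4.34-fold, and without silica 2, 3, 4 or 5 the p was 0.0714. Apart from silica 1, the silica totals reached at most 18222656 and did not overlap with the nano_high totals, so depth and particle cannot be told apart among those libraries. The libraries also differed in yolk. Summed CPM (counts per 1000000) of the 4 yolk names was 23215, 47523, 20151, 139917 and 70364 in nano_high 1 to 5 and 9939, 18069, 27223, 17932 and 27907 in silica 1 to 5. Nano_high 2, 4 and 5 therefore stood above every silica library in yolk, while nano_high 1 and 3 lay within the silica range. Summed collagen and matrix CPM was lowest in nano_high 4 and 5, at 6996 and 7359, against 11530 to 21035 in the silica libraries. Muscle sums overlapped, at 20016 to 36105 in nano_high and 25715 to 37498 in silica.

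**Figure D1:**
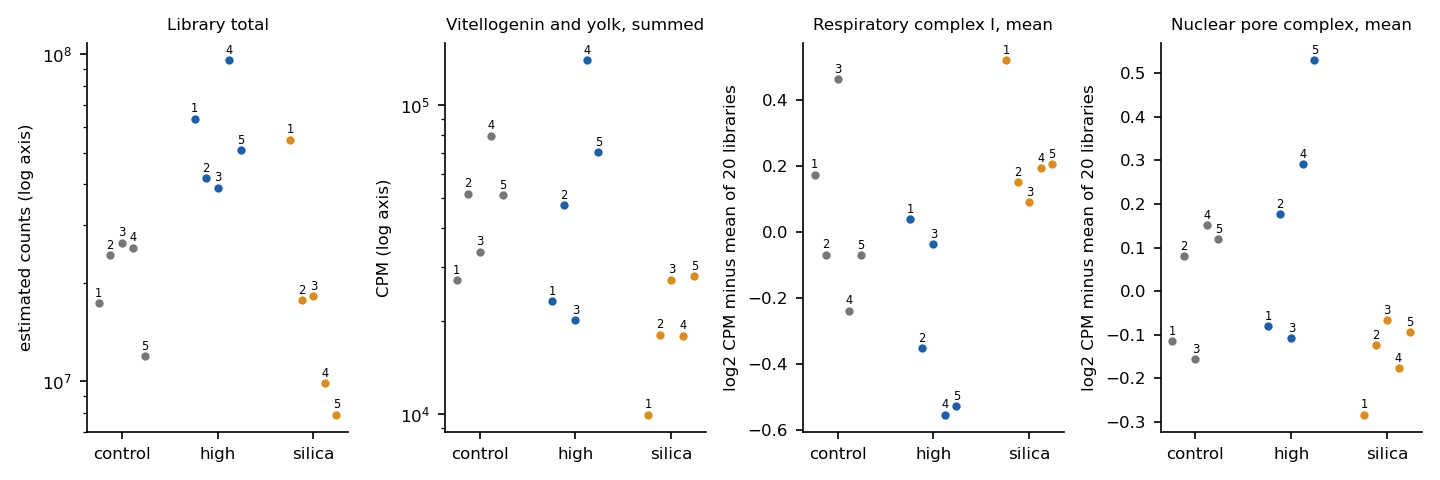
Each point is a library, numbered within its group, for control, nano_high (high) and silica; the panels show the library total in estimated counts (log axis), the summed CPM of 4 yolk names (log axis), and the mean log2 CPM of 25 respiratory complex I names and of 25 nuclear pore names, each name centred on its mean over all 20 libraries. Nano_high 4 and 5 have the highest yolk sums of the nano_high group, the lowest complex I means and the highest nuclear pore means, and silica 1 stands at the other end of all 3 measures.

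Copolymer and silica libraries differed at 405 of 7564 names tested (5.35%; edgeR quasi-likelihood test, Benjamini-Hochberg adjusted p under 0.05). Of these, 179 were higher in the copolymer group (2.37%) and 226 were lower (2.99%). Most differences were small, with a median size of 0.52 on the log2 scale, and 45 exceeded 2-fold (21 higher and 24 lower). The CPM of the groups did not overlap at 316 of the 405 names, against 589 of all names tested (7.79%). Upper-quartile scaling gave 119 higher and 270 lower, and DESeq2 gave 512 higher and 407 lower. Each name is a deposited protein description, which can stand for several gene copies, and a tag such as arp2_g5857 is part of the deposited name.

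The number of calls depended on single libraries. Without nano_high 1, 2, 3, 4 or 5 in turn, 648, 112, 614, 148 and 77 names passed, and without silica 1, 2, 3, 4 or 5, 90, 300, 320, 115 and 180 passed. Of the 405 names, 380, 112, 372, 141 and 77 stayed called without each nano_high library and 90, 267, 290, 114 and 173 without each silica library. Each kept its sign in all of these fits. Without nano_high 4 and 5 together, 24 names passed. A fit of the 10 libraries alone passed 36, and a fit with the log2 library total as a covariate passed 14. Among the 648 names called without nano_high 1, that library lay nearer to the nano_high mean of the others than to the silica mean at 309 (47.7%), and nano_high 3 did so at 330 of 614 (53.7%). For the other 8 libraries the share nearer to their own group ran from 73.3% to 97.4%.

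A core of 65 names stayed called whichever library was left out, 44 lower and 21 higher in the copolymer group, and 62 of them had no overlap between groups. Each of the other called names lost its call without at least 1 library. The 65 were picked out after their values were seen. The 44 lower names included, by description, respiratory chain subunits, cytoglobin, lysosomal proteins and transport cofactors. The 21 higher names included Notch, Ras regulators, RNA-binding proteins and nuclear pore proteins.

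**Figure D2:**
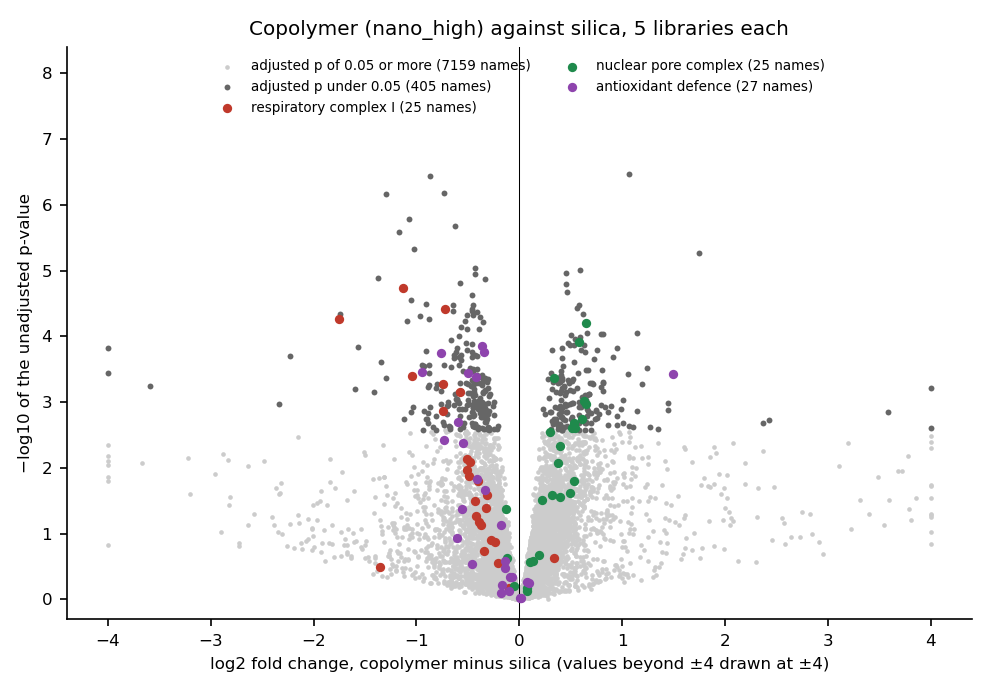
Each point is 1 of 7564 names, with the log2 fold change (copolymer minus silica) on the x axis and -log10 of the unadjusted p-value on the y axis; dark points are the 405 called names and colours mark 3 lists. The 7 called complex I names all lie on the left and the 9 called nuclear pore names all lie on the right, and most called names lie within 1 log2 unit of zero.

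The steepest fall in the core among names with a description was in NADH-ubiquinone oxidoreductase chain 4L, a subunit of respiratory complex I that animals encode in mitochondrial DNA. Its CPM was 59.8, 35.8, 70.8, 32.9 and 32.4 in nano_high 1 to 5 and 213, 112, 139, 163 and 150.3 in silica 1 to 5. Every copolymer library lay below every silica library, and nano_high 2, 4 and 5 were the lowest. The log2 fold change was -1.75 ± 0.34 (SE; adjusted p = 0.0108), a 3.36-fold difference of means. Control libraries ranged from 108 to 230.2.

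A HIG1 domain family member (arp2_g6209), from a family of mitochondrial inner membrane proteins named after a hypoxia-induced gene, had CPM of 7.27, 6.02, 5.57, 5.65 and 5.25 in the copolymer libraries and 17.2, 11.5, 14.6, 13.5 and 10.01 in the silica libraries. All 5 copolymer libraries lay below all 5 silica libraries. The log2 fold change was -1.17 ± 0.18 (SE; adjusted p = 0.00277). Cytoglobin, a haem protein that binds oxygen and nitric oxide, showed CPM of 459.7, 515, 532, 451 and 442 with the copolymer and 1248, 826, 864, 664 and 1273 with silica. The copolymer libraries were close to each other, while silica 1 and 5 were the highest. Cytoglobin was lower in the copolymer group by a log2 fold change of -1.02 ± 0.16 (SE; adjusted p = 0.00446). The von Hippel-Lindau protein, which marks the hypoxia-inducible factor for breakdown, was also lower (-0.58 ± 0.10 (SE; adjusted p = 0.00700)), with 14.9 to 18.5 CPM against 21.6 to 28.4.

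The lowest p-values of the comparison fell on a few names of different kinds. Glycine N-methyltransferase, which transfers a methyl group from S-adenosylmethionine to glycine, had CPM of 97.5, 95.3, 90.6, 117 and 98.1 with the copolymer and 191, 142, 146, 159 and 189 with silica. Nano_high 4 was the highest of the copolymer libraries and still lay below silica 2, the lowest silica library. Its log2 fold change was -0.73 ± 0.10 (SE; adjusted p = 0.00131). A kinesin-associated protein (arp2_g1514), named for a subunit that ties kinesin motors to their cargo, was at 37.8 to 48.8 CPM with the copolymer and at 62.01 to 86.7 with silica (-0.87 ± 0.11 (SE; adjusted p = 0.00131)). A beta lactamase domain protein (arp2_g2263) was at 12.2 to 21.2 against 36.6 to 55.3 CPM (-1.30 ± 0.18 (SE; adjusted p = 0.00131)). Each of these 3 names was separated without overlap.

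Plasminogen activator inhibitor 1 RNA-binding protein (arp2_g6385), whose mammalian counterpart binds mRNA and ribosomes, moved the other way. Its CPM was 453, 536, 389, 489.7 and 478 in the copolymer libraries and 218, 257, 247, 213 and 183 in the silica libraries. The lowest copolymer library, nano_high 3, was above the highest silica library, silica 2. The rise had a log2 fold change of 1.07 ± 0.14 (SE; adjusted p = 0.00131).

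These names, with 30S ribosomal protein S8, tumor necrosis factor alpha-induced protein 8 protein 3 and Notch described below, include the 8 names that were called under 21 of the 23 alternative settings. Of the 2 remaining settings, the fit of the 10 libraries alone with the replicate number as a block called 0 of the 8, and the fit without silica 1, nano_high 4 and nano_high 5 called 4, namely 30S ribosomal protein S8, glycine N-methyltransferase, the kinesin-associated protein and the RNA-binding protein. The 8 are the kinesin-associated protein, the beta lactamase domain protein, the HIG1 domain protein, glycine N-methyltransferase, the RNA-binding protein and those 3.

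**Figure D3:**
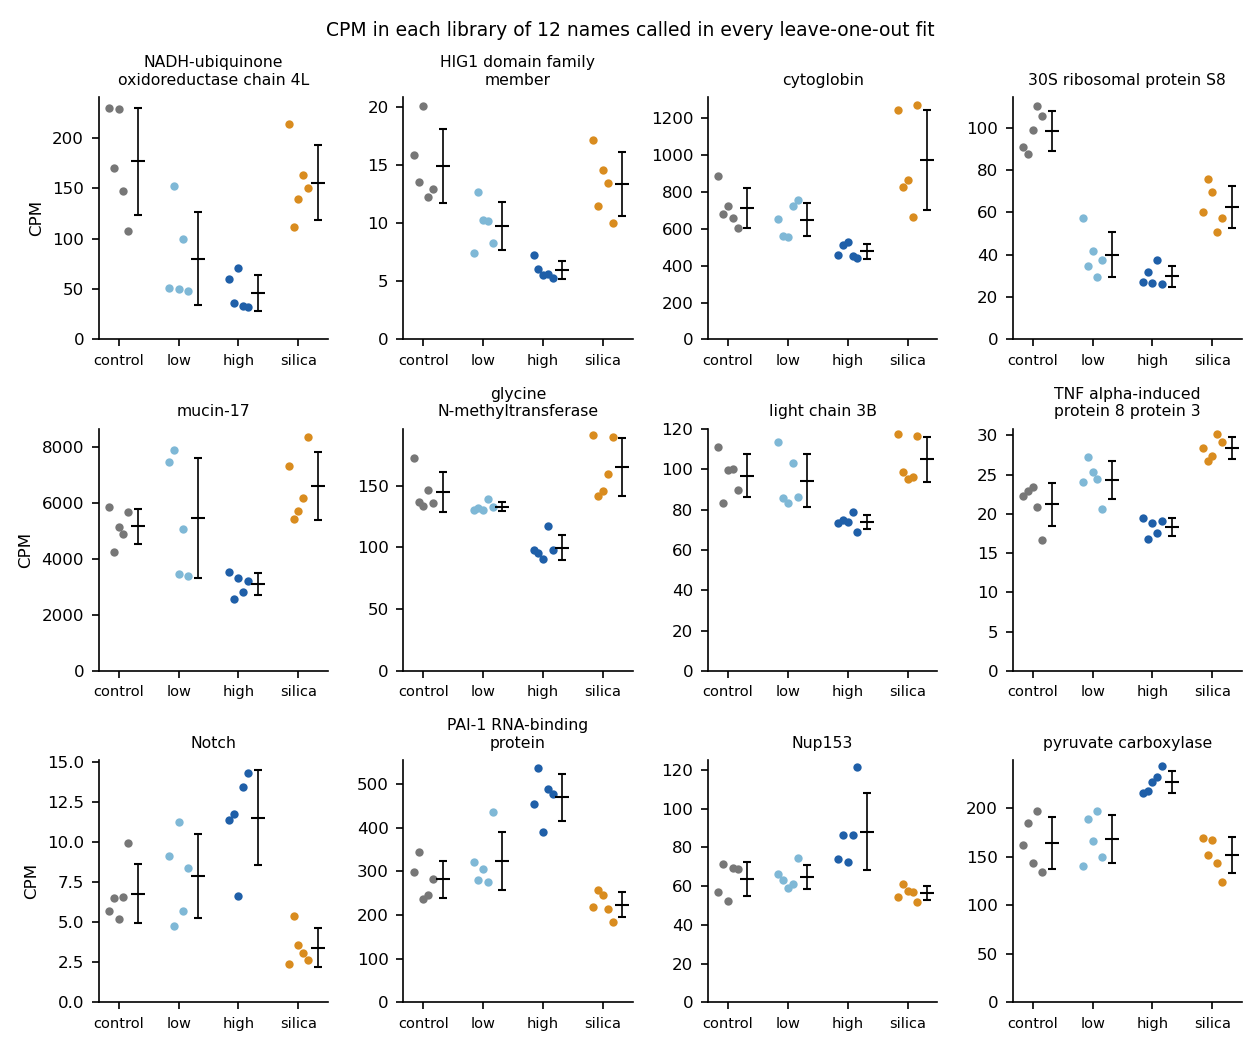
Points are the CPM of single libraries for 12 of the 65 core names in control, copolymer at 2.3e11 (low), copolymer at 2.3e12 (high) and silica, and the bars give the mean and SD of 5 libraries; each y axis starts at 0. In all 12 panels the high copolymer points and the silica points do not overlap, and for Notch the control points overlap both.

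Mitochondrial names that passed the test were mostly lower with the copolymer. The lists for complex I and for the word mitochondrial were added after values were seen. Of 73 oxidative phosphorylation names tested, 10 fell and 0 rose, with a median log2 fold change of -0.43 beside -0.01 over all names. 7 of those falls belonged to complex I (NADH dehydrogenase, the entry point of electrons into the respiratory chain). In the complex I list 7 of 25 names fell (28%) and 24 of 25 had a negative fold change. The list misses some NADH dehydrogenase names, given below, none of them called. Mitochondrial and bacterial-type ribosomal proteins fell at 6 of 65 and rose at 0, with a median of -0.34. Over all 355 names that contain the word mitochondrial, 34 fell and 2 rose, with a median of -0.25. These counts moved with single libraries. Without nano_high 1 the falls were 19 for oxidative phosphorylation, 12 for the ribosomal list and 53 for the mitochondrial names. Without nano_high 2, nano_high 4, nano_high 5, silica 1 or silica 4 in turn, oxidative phosphorylation had 3, 3, 3, 3 and 4 falls, complex I had 3 each time, the ribosomal list had 1 each time and the mitochondrial names 10, 10, 8, 10 and 14. Without silica 5 oxidative phosphorylation had 6 falls and the mitochondrial names 17, and the ribosomal list had 3 without silica 2, 3 or 5.

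Within complex I the core names were chain 4L, subunit C2 and iron-sulfur protein 4. Subunit C2 had CPM of 9.86, 6.86, 7.53, 4.63 and 5.21 with the copolymer and 19.7, 16.2, 13.3, 10.4 and 14.8 with silica. The groups did not overlap, although nano_high 1 at its highest came near silica 4 at its lowest. Its log2 fold change was -1.13 ± 0.20 (SE; adjusted p = 0.00787). Iron-sulfur protein 4 was at 44.8 to 68.9 against 78.3 to 111 CPM (-0.72 ± 0.13 (SE; adjusted p = 0.0101)). The other 4 called subunits were an unnumbered NADH-ubiquinone oxidoreductase chain, iron-sulfur protein 3, flavoprotein 2 and beta subcomplex subunit 8, with log2 fold changes from -1.04 to -0.57. Each of these 4 lost its call when at least 1 library was left out.

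**Figure D4:**
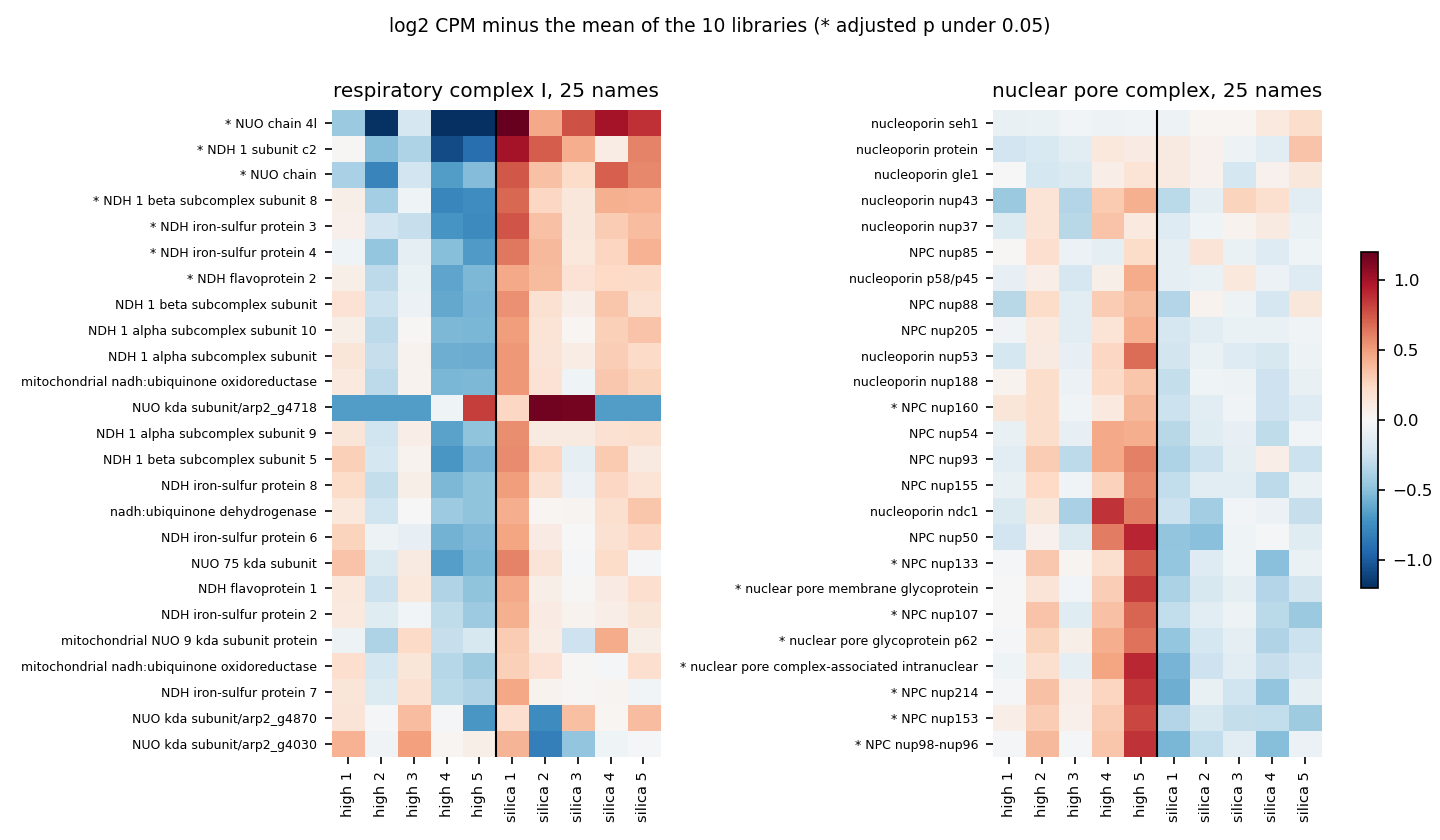
Colour gives log2 CPM minus the mean of the 10 libraries for 25 complex I names (left) and 25 nuclear pore names (right), with nano_high 1 to 5 left of the line and silica 1 to 5 right of it; an asterisk marks a called name, NDH stands for NADH dehydrogenase [ubiquinone], NUO for NADH-ubiquinone oxidoreductase and NPC for nuclear pore complex protein. The contrast is strongest between nano_high 4 and 5 and silica 1, and nano_high 1 and 3 are near zero for most names of both lists.

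The mean of the centred log2 CPM over the 25 complex I names was 0.04, -0.35, -0.04, -0.55 and -0.53 in nano_high 1 to 5 and 0.52, 0.15, 0.09, 0.20 and 0.21 in silica 1 to 5. The 2 groups did not overlap on this mean, but nano_high 1 lay close to silica 3, and the 5 controls ran from -0.24 to 0.46 and overlapped both. Without nano_high 4 and 5 no complex I name was called and the list median was -0.23, against -0.44 with them. The yolk sums given above moved with these libraries, and their part in the mitochondrial difference was not tested.

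Of 48 respiratory chain and ATP synthase names outside the complex I list, 3 fell and 0 rose, and 4 had a positive log2 fold change, up to 2.58. The 48 include NADH dehydrogenase names that the complex I pattern missed. They are an unnumbered NADH dehydrogenase (-0.45) and 1 alpha subcomplex subunit names without a tag (-0.44) and with the tag arp2_g2680 (-0.61), none called. The 3 falls were cytochrome c oxidase subunits 6A1 (-0.75 ± 0.18 (SE; adjusted p = 0.0257)) and 6B1 and ATP synthase-coupling factor 6. Cytochrome c oxidase subunit 6B1, part of the terminal oxidase, was at 98.5 to 155 CPM against 157 to 223 (-0.60 ± 0.15 (SE; adjusted p = 0.0278)). ATP synthase-coupling factor 6 was at 104 to 171 against 177 to 251 (-0.69 ± 0.18 (SE; adjusted p = 0.0341)). Outside this list, the ATPase inhibitor mai-2, which in animals limits ATP breakdown by the synthase, was at 0.497 to 0.785 against 1.07 to 3.34 CPM (-1.41 ± 0.35 (SE; adjusted p = 0.0278)). Stomatin protein 2, an inner membrane scaffold, was at 16.1 to 25.7 against 59.1 to 69.3 (-1.57 ± 0.33 (SE; adjusted p = 0.0169)), with controls spread from 20.9 to 75.02.

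Bacterial-type ribosomal proteins were led by 30S ribosomal protein S8 (arp2_g2243). It had CPM of 26.9, 31.8, 26.6, 37.3 and 26.02 with the copolymer and 60.02, 75.6, 69.7, 50.7 and 57.1 with silica. Copolymer libraries lay below silica libraries without overlap, and both lay below the controls at 87.5 to 110.0. The log2 fold change between the particles was -1.08 ± 0.16 (SE; adjusted p = 0.00249). The other 5 falls were 28S ribosomal proteins S2, S18b and S29, 39S ribosomal protein L49 and mitochondrial ribosomal protein L35, with log2 fold changes from -0.89 to -0.45.

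Some mitochondrial names in the core act outside the respiratory chain. Frataxin, which takes part in iron-sulfur cluster assembly, was lower (-0.53 ± 0.10 (SE; adjusted p = 0.0108)), at 15.1 to 20.5 CPM against 23.9 to 29.2. Mitochondrial arginine-tRNA ligase (-0.67 ± 0.14), D-2-hydroxyglutarate dehydrogenase (-0.46 ± 0.08) and the vitamin B12 handling protein of methylmalonic aciduria and homocystinuria type D (-0.46 ± 0.09) were lower as well. Pyruvate carboxylase, which makes oxaloacetate from pyruvate, was the only core name with the word mitochondrial that rose. It had CPM of 215, 218, 227, 232 and 243 with the copolymer and 169, 151, 167, 144 and 124 with silica. The lowest copolymer library stood well above the highest silica library (0.59 ± 0.12 (SE; adjusted p = 0.0144)).

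Antioxidant names were mostly lower with the copolymer, with 7 of 27 lower and 1 higher (29.6% called) and a median log2 fold change of -0.34. Thioredoxin-2, a disulfide reductant, had CPM of 147, 131, 152, 93.96 and 98.9 with the copolymer and 245, 209, 181, 197 and 220.2 with silica. The groups were separate, and nano_high 4 and 5 were the lowest (-0.76 ± 0.16 (SE; adjusted p = 0.0174)). Also lower were mitochondrial glutaredoxin-related protein 5 (-0.95 ± 0.22), manganese superoxide dismutase (-0.60 ± 0.17), glutathione peroxidase (-0.50 ± 0.12), peroxiredoxin-5 (-0.43 ± 0.10), a secretable thioredoxin peroxidase (-0.34 ± 0.07) and a thioredoxin domain-containing protein (-0.36 ± 0.08), the last being a core name.

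The name that rose was 1 of 4 copper-zinc superoxide dismutase names tested, enzymes that convert superoxide to hydrogen peroxide. Its CPM was 29.6, 32.03, 20.5, 82.5 and 53.5 with the copolymer and 11.2, 11.7, 20.02, 17.8 and 17.1 with silica. Nano_high 4 and 5 were the highest, and nano_high 3 stood just above silica 3. It rose by a log2 fold change of 1.49 ± 0.35 (SE; adjusted p = 0.0244), with controls at 27.1 to 76.7. The other 3 copper-zinc names were not called, with log2 fold changes of -0.17, -0.10 (arp2_g1295) and 0.02 (adjusted p from 0.773 to 0.984). The first of these was by far the most abundant, at a mean of 152746 CPM with the copolymer and 171847 with silica. Without nano_high 4 and 5 no antioxidant name was called, against 7 lower and 1 higher with them, and without nano_high 2, nano_high 4, nano_high 5, silica 1 or silica 4 alone 4, 3, 1, 2 and 4 were lower.

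The called names of several nuclear lists were all higher with the copolymer. The nuclear pore, ribosome biogenesis and chromatin modifier lists were added after values were seen. Nuclear pore proteins, which form the channels between nucleus and cytoplasm, were called higher at 9 of 25 names and lower at 0 (36% called), with a median log2 fold change of 0.38. Splicing factors were higher at 9 of 73 and lower at 0, with a median of 0.26. Ribosome biogenesis names had 3 of 44 higher (6.82%), 0 lower and a median of 0.44, and histones had 2 of 18 higher (11.1%), 0 lower and a median of 0.34. DNA replication and cell cycle names had 3 of 72 higher and a median of 0.26, and chromatin modifiers 2 of 61 and a median of 0.22, with 0 lower in both. Their called shares, 4.17% and 3.28%, stood beside 2.37% of all names called higher and 5.35% called in either direction. Without nano_high 2, nano_high 4, nano_high 5, silica 1 or silica 4 in turn, the pore list had 2, 3, 2, 2 and 2 rises and the splicing list 3, 4, 2, 1 and 3. Splicing rises numbered 17 without nano_high 1, 16 without nano_high 3 and 5 without silica 3, and pore rises 4 without silica 2 and 5 without silica 5.

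Nup153, a protein of the nuclear basket, had CPM of 73.98, 86.3, 72.7, 86.4 and 121 in the copolymer libraries and 54.6, 61.3, 57.3, 56.8 and 51.9 in the silica libraries. Nano_high 5 was far above the rest, and the other 4 copolymer libraries still lay above silica 2, the highest silica library. It rose by 0.64 ± 0.13 (SE; adjusted p = 0.0110). Nuclear pore glycoprotein p62, of the central channel, was at 77.4 to 123 against 56.8 to 72.7 CPM (0.58 ± 0.12 (SE; adjusted p = 0.0164)). These 2 were the pore names of the core. The other 7 were Nup160, Nup214, Nup98-Nup96, Nup107, Nup133, a pore membrane glycoprotein and an intranuclear coiled-coil protein, with log2 fold changes from 0.34 to 0.65.

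The mean centred log2 CPM over the 25 nuclear pore names was -0.08, 0.18, -0.11, 0.29 and 0.53 in nano_high 1 to 5 and -0.28, -0.12, -0.07, -0.18 and -0.09 in silica 1 to 5. Nano_high 1 and 3 lay inside the silica range on this mean, while nano_high 2, 4 and 5 lay above it. The controls ran from -0.16 to 0.15. No pore name and no splicing name was called without nano_high 4 and 5, and their medians were then 0.17 and 0.18. The nano_high libraries with high pore means were those with high yolk sums, and the part of yolk in the difference was not tested. Among 62 names chosen as short proteins 9 were lower and 0 higher, and among 44 chosen as long proteins 4 were higher and 0 lower, with medians of -0.10 and 0.09. Whether transcript length took part in the mitochondrial and nuclear differences was not tested.

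RNA-binding proteins in the core included polypyrimidine tract binding protein (arp2_g741), a splicing regulator. It had CPM of 112, 123, 121, 102 and 107 with the copolymer and 81.6, 88.9, 81.1, 73.9 and 74.4 with silica, without overlap (0.50 ± 0.10 (SE; adjusted p = 0.0167)). Its rise was not led by nano_high 4 and 5, which were the lowest of the 5 copolymer libraries. A far upstream binding protein (arp2_g5950) was at 42.6 to 65.6 against 29.2 to 42.4 CPM (0.66 ± 0.13 (SE; adjusted p = 0.0140)). An unnumbered heterogeneous nuclear ribonucleoprotein had CPM of 18.2, 36.9, 30.4, 39.9 and 35.8 with the copolymer and 18.3, 12.4, 19.2, 11.3 and 11.1 with silica. Here nano_high 1 lay within the silica range, and the call held all the same (1.15 ± 0.23 (SE; adjusted p = 0.0140)). Among splicing factors outside the core, U1 small nuclear ribonucleoprotein 70 kDa (0.41 ± 0.09) and heterogeneous nuclear ribonucleoproteins A3 (0.64 ± 0.14) and H (0.81 ± 0.18) rose.

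Core names with roles in transcription went in both directions. Cyclin-T2, a partner of the kinase that releases paused polymerase, was at 65.3 to 84.1 CPM against 51.4 to 59.7 (0.45 ± 0.08 (SE; adjusted p = 0.00662)). Negative elongation factor A, a subunit of the complex that holds polymerase at the pause, was at 43.6 to 54.7 against 31.5 to 39.5 (0.47 ± 0.10 (SE; adjusted p = 0.0167)). A subunit of the snRNA-activating protein complex, needed for small nuclear RNA transcription, was lower (-0.43 ± 0.07 (SE; adjusted p = 0.00662)), at 41.5 to 47.6 against 52.9 to 63.4 CPM. A nuclear hormone receptor of the Ftz-F1 family was higher, at 60.01 to 77.8 against 41.6 to 52.3 CPM (0.55 ± 0.11 (SE; adjusted p = 0.0152)).

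Cell division and chromatin names outside the core were less even among libraries. Cyclin-E1, which drives entry into DNA synthesis, had CPM of 21.8, 36.9, 19.6, 36.9 and 101 with the copolymer and 10.4, 14.3, 19.03, 19.4 and 16.4 with silica. Nano_high 5 stood far above the others, and nano_high 3 was almost level with silica 4 (1.45 ± 0.38 (SE; adjusted p = 0.0364)). Cyclin-D2 (0.45 ± 0.12), 1 of 2 histone H1.0 names (the one deposited as histone h1.0/sw; 0.81 ± 0.20) and a histone H3 type (arp2_g42; 0.79 ± 0.21) rose too. The other histone H1.0 name was not called, at 0.01 (adjusted p = 0.983). Among ribosome assembly factors, Rrp12 (0.67 ± 0.18), midasin (arp2_g2414; 0.66 ± 0.18) and Bms1 (0.74 ± 0.20) rose. Cytosolic ribosomal proteins were higher at 3 of 99 names, L7, L13 and S4 (arp2_g5907), and lower at 0, with a median of 0.11. The 3.03% called stood beside 2.37% of all names called higher and 5.35% called in either direction.

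Signalling proteins in the core included Notch (arp2_g5857), a receptor for contact signals between neighbouring cells. Its CPM was 11.4, 11.8, 6.67, 13.5 and 14.3 in the copolymer libraries, 2.39, 5.42, 3.58, 3.06 and 2.67 in the silica libraries and 5.72, 6.53, 5.18, 6.57 and 9.93 in the controls. Copolymer libraries were all above silica libraries, with nano_high 3 the lowest of the first and silica 2 the highest of the second, and the controls overlapped both. The rise over silica was 1.75 ± 0.28 (SE; adjusted p = 0.00459), a 3.37-fold difference of means. Another Notch name, without a tag, was also higher (1.01 ± 0.28 (SE; adjusted p = 0.0446)), but its groups overlapped, at 70.2 to 176 against 39.8 to 77.1 CPM.

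The 2 falls in the list of Notch, Wnt and homeobox names were Wnt-2b and secreted frizzled-related protein. Wnt-2b, a secreted ligand, had CPM of 4.92, 4.72, 4.11, 5.57 and 5.43 with the copolymer and 7.36, 7.96, 7.87, 6.99 and 6.94 with silica. The groups were separate, and both were below the controls at 9.81 to 12.3 (-0.59 ± 0.13 (SE; adjusted p = 0.0183)). Secreted frizzled-related protein, which binds Wnt ligands outside the cell, was lower (-0.88 ± 0.21 (SE; adjusted p = 0.0257)). Brother of odd with entrails limited (bowl; arp2_g9170), a zinc finger factor of Drosophila gut and leg patterning, was higher (0.81 ± 0.19 (SE; adjusted p = 0.0253)), at 6.89 to 10.99 against 4.31 to 6.05 CPM and with controls at 2.51 to 4.12. The list of Notch, Wnt and homeobox names had 4 of 79 higher and 2 lower (7.59% called, beside 5.35% of all names), with a median of 0.17. Homeobox protein Dbx1-b (1.11 ± 0.32) was the fourth rise. The list is a pattern on the names and does not hold every related name. Homeotic proteins antennapedia and empty spiracles, suppressor of hairless, transcription factor 7 1-a and transducin enhancer protein 4 were called outside it.

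Further core names that rose, each by less than 2-fold, act in Ras signalling or at the cell cortex. Son of sevenless, the exchange factor that activates Ras, had CPM of 54.7, 56.8, 55.9, 54.1 and 65.8 with the copolymer and 39.4, 44.9, 41.1, 42.1 and 41.5 with silica. The 5 copolymer libraries were all above the 5 silica libraries, and nano_high 5 was the highest (0.46 ± 0.08 (SE; adjusted p = 0.00837)). Ral-A, a Ras-related GTPase, was at 63.8 to 68.4 against 41.5 to 54.99 CPM (0.45 ± 0.08 (SE; adjusted p = 0.00700)). An ezrin-moesin-radixin protein, which anchors actin to the membrane, was at 98.2 to 112 against 61.5 to 80.96 (0.56 ± 0.10 (SE; adjusted p = 0.0101)). A phosphatase and actin regulator (0.58 ± 0.11) and macoilin-1 (0.59 ± 0.10), whose worm counterpart acts in neurons, were higher as well. The dual serine/threonine and tyrosine protein kinase was lower, at 32.6 to 37.4 against 41.5 to 46.4 CPM (-0.33 ± 0.06 (SE; adjusted p = 0.00667)).

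Several lower core names act in lysosomes, autophagy or cargo transport. Light chain 3B, which coats the autophagosome membrane, had CPM of 73.4, 74.8, 73.9, 78.6 and 68.9 with the copolymer and 118, 98.9, 95.3, 96.3 and 117 with silica. No copolymer library reached the lowest silica library (-0.51 ± 0.10 (SE; adjusted p = 0.0128)). Epididymal secretory protein E1, a lysosomal sterol carrier, was at 77.4 to 102 against 110.0 to 142 CPM (-0.52 ± 0.11 (SE; adjusted p = 0.0166)). The gamma-interferon-inducible lysosomal thiol reductase name was at 26.5 to 30.96 against 34.7 to 39.8 (-0.38 ± 0.07 (SE; adjusted p = 0.0105)). A dynactin subunit, part of the cofactor that couples dynein to cargo, was nearly constant within groups, at 122 to 134 against 170.2 to 177 CPM (-0.43 ± 0.07 (SE; adjusted p = 0.00662)). Dynactin subunit p25 (-0.58 ± 0.12), sorting nexin-13 (-0.45 ± 0.08) and ADP-ribosylation factor 8b-a (-0.90 ± 0.17) were lower too.

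Over the whole lists, lysosome and vacuolar ATPase names were lower at 4 of 49 and higher at 0, and endocytosis and phagocytosis names were lower at 5 of 52 and higher at 1, with medians of -0.17 and -0.01. Their called shares were 8.16% and 11.5%, beside 5.35% of all names. The endocytosis falls were adaptor subunits that pick cargo into coated vesicles (AP-1 mu-1 and sigma-2, AP-2 sigma and the AP-3 medium chain carmine) and sorting nexin-13, a core name. The rise was a class C scavenger receptor (arp2_g1623; 1.14 ± 0.30 (SE; adjusted p = 0.0364)), at 3.96 to 7.32 against 1.38 to 4.002 CPM. The vacuolar ATPase assembly protein vma21 was at 0.919, 0.5699, 0, 0.162 and 0.338 CPM with the copolymer and 6.98, 5.31, 4.46, 5.36 and 2.001 with silica. Every copolymer library was below 1 and below every silica library (-3.59 ± 0.86 (SE; adjusted p = 0.0259)).

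Called mucin and peritrophin names went in both directions. Mucin-17, from the family of secreted or membrane glycoproteins that cover epithelia, had CPM of 3516, 2568, 3324, 2803 and 3222 with the copolymer and 7322, 5418, 5706, 6148 and 8339 with silica. All copolymer libraries were below all silica libraries, and silica 1 and 5 were the highest (-1.09 ± 0.21 (SE; adjusted p = 0.0108)). Controls ranged from 4255 to 5833, and the libraries of the lower copolymer concentration from 3377 to 7869. Mucin 55B went the other way, at 644 to 1295 against 427 to 631 CPM (0.81 ± 0.19 (SE; adjusted p = 0.0253)), and so did a chitin-binding peritrophin-A domain name, at 153 to 540.1 against 50.4 to 159 CPM with overlap (1.35 ± 0.39 (SE; adjusted p = 0.0495)). In all, peritrophic matrix and mucin names were higher at 2 of 22 and lower at 1, with a median of -0.39. The chitin turnover list had 1 of 25 higher, the same peritrophin-A name, and 0 lower. Called shares of the 2 lists were 13.6% and 4%, beside 5.35% of all names.

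Digestive proteases were lower at 2 of 50 names and higher at 0. The 4% called stood beside 2.99% of all names called lower and 5.35% called in either direction. Cathepsin L, a cysteine protease, had CPM of 1033, 841, 1007, 637 and 639.7 with the copolymer and 1690.5, 1444, 1218, 1361 and 1354 with silica. The groups were separate, with nano_high 4 and 5 the lowest (-0.77 ± 0.19 (SE; adjusted p = 0.0277)). Cathepsin S was at 18.2 to 32.4 against 26.9 to 51.8 CPM (-0.67 ± 0.19 (SE; adjusted p = 0.0495)). Among 37 digestive carbohydrases and lipases only hepatic triacylglycerol lipase was called (2.7% of the list). It was lower with the copolymer (-0.93 ± 0.27 (SE; adjusted p = 0.0495)), at 46.8 to 89.2 against 82.7 to 194 CPM and with controls at 161 to 354.

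Some names with immune or cell-death descriptions were lower. No list of cell-death names was made, so those named here are examples. Called names of that kind also included apoptosis-inducing factor, mitochondrial endonuclease G, death associated protein kinase, a death domain protein and viral IAP-associated factor, whose directions are not given here. Tumor necrosis factor alpha-induced protein 8 protein 3, a lipid-binding protein in mammals, had CPM of 19.4, 16.8, 18.9, 17.5 and 19.1 with the copolymer and 28.3, 26.8, 27.4, 30.1 and 29.2 with silica. Within each group the libraries were close together, and the groups were separate (-0.63 ± 0.09 (SE; adjusted p = 0.00264)). A transmembrane Bax inhibitor motif protein, of a family that restrains cell death, was at 1.41 to 2.47 against 3.54 to 6.800 CPM (-1.37 ± 0.23 (SE; adjusted p = 0.00667)). Innate immunity names were lower at 2 of 39 and higher at 0 (5.13% called, beside 5.35% of all names), with a median of -0.23. They were a Gram-negative binding protein, which recognises microbial surfaces (-0.80 ± 0.19 (SE; adjusted p = 0.0253)), and galectin-2, a sugar-binding lectin (-0.30 ± 0.08 (SE; adjusted p = 0.0380)).

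Metabolic enzymes of the core included pyridoxine-5'-phosphate oxidase, which makes the active form of vitamin B6, at 23.8 to 29.6 against 36.3 to 46.7 CPM (-0.65 ± 0.12 (SE; adjusted p = 0.0101)). Fructose-2,6-bisphosphatase Tigar B, which slows glycolysis, was at 11.2 to 12.6 against 14.9 to 18.8 (-0.46 ± 0.09 (SE; adjusted p = 0.0101)). Fatty acid-binding protein, an intracellular lipid carrier, had CPM of 29.3, 33.6, 27.4, 32.6 and 35.9 with the copolymer and 18.9, 22.5, 24.8, 21.1 and 15.9 with silica. It was higher without overlap, by 0.62 ± 0.12 (SE; adjusted p = 0.0101), and controls lay at 25.6 to 30.7. Glycolysis and citrate cycle names had 1 of 48 higher, L-lactate dehydrogenase (arp2_g1395; 0.58 ± 0.17), and 1 lower, mitochondrial NADP isocitrate dehydrogenase (-0.45 ± 0.10), with a median of -0.20. Fatty acid and lipid names had 1 of 55 higher and 2 lower, with a median of -0.19. The shares called in these 2 lists, 4.17% for glycolysis and citrate cycle and 5.45% for fatty acid and lipid, were near the 5.35% of all names. The fatty acid and lipid list, a pattern on the names, leaves out related ones. A core name deposited as very-long-chain was lower outside it (-0.35 ± 0.07 (SE; adjusted p = 0.0109)). Carnitine O-acetyltransferase, 2,4-dienoyl-CoA reductase, 3-hydroxyacyl-CoA dehydrogenase type II, enoyl-CoA hydratase domain-containing protein 2 and hydroxyacyl-coenzyme A dehydrogenase were also called, not all of them in the list.

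The detoxification and stress lists were called at shares near or below the 5.35% of all names. These were 3.7% for cytochrome P450, 2.94% for conjugation, 3.77% for heat shock and chaperones and 5.56% for metal handling. Cytochrome P450 enzymes, which oxidise foreign and endogenous compounds, were lower at 1 of 27, the name 305a1, at 294 to 367 against 401 to 478 CPM (-0.43 ± 0.09 (SE; adjusted p = 0.0177)). Conjugation enzymes were higher at 1 of 34, a glutathione S-transferase C-terminal domain protein (1.45 ± 0.37 (SE; adjusted p = 0.0340)). Called names outside these lists included glutathione S-transferase theta, thiopurine S-methyltransferase and 25-hydroxyvitamin D-1 alpha hydroxylase. Heat shock proteins and chaperones had 1 of 53 higher, heat shock 70 kDa protein 4L (0.29 ± 0.07), and 1 lower, tubulin-specific chaperone C (-0.57 ± 0.13). Metal handling names were lower at 1 of 18, a zinc transporter (arp2_g4539; -0.73 ± 0.21). Translation factors and tRNA synthetases had 2 of 87 higher and 5 lower (8.05% called). Ecdysteroid and juvenoid names had 1 of 18 higher, the Ftz-F1 receptor, and 1 lower, juvenile hormone esterase binding protein (-0.50 ± 0.13), or 11.1% called. Eye and phototransduction names had 1 of 19 higher (5.26% called), the transcription cofactor eyes absent (0.78 ± 0.21).

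No name was called in the lists for ABC transporters (17 tested), proteasome (31), cuticle proteins (42), collagen and matrix (42), hemoglobin (5), yolk (4), germline (20), muscle (25), neural transmission (97) and solute carriers and ion pumps (100). At an unadjusted p under 0.05 these lists held 2, 3, 6, 4, 0, 3, 5, 4, 5 and 20 names. Of the 382 names in these lists together, edgeR called 0, DESeq2 24 and limma-voom 6. The absence of calls holds for the lists, which are patterns on the names. Called names outside them included flightin, the G-protein coupled receptor gpr5ht4, sideroflexin-1 and the mitochondrial pyruvate carrier. The list with the lowest median was cuticle proteins at -0.54, although at an unadjusted p under 0.05 it had 4 names higher and 2 lower. DESeq2 called 2 of its names higher and 0 lower. Single libraries spread widely. Cuticular protein 27 precursor, which went against the sign of that median, was at 5.53, 8.48, 1.78, 238 and 318 CPM with the copolymer and 1.85, 1.603, 2.04, 7.37 and 2.001 with silica (adjusted p = 0.0633). Vitellogenin-1 precursor, the main yolk protein, was at 22420.0, 46318, 19289.6, 136746 and 69109 CPM with the copolymer and 9319, 17376, 26194, 17151 and 27004 with silica. Its groups overlapped, and the difference of 1.60 ± 0.50 had an adjusted p of 0.0618. Di-domain hemoglobin precursor, an oxygen carrier of the haemolymph, was at 1726 to 5794 against 2398 to 3274 CPM (adjusted p = 0.430).

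**Figure D5:**
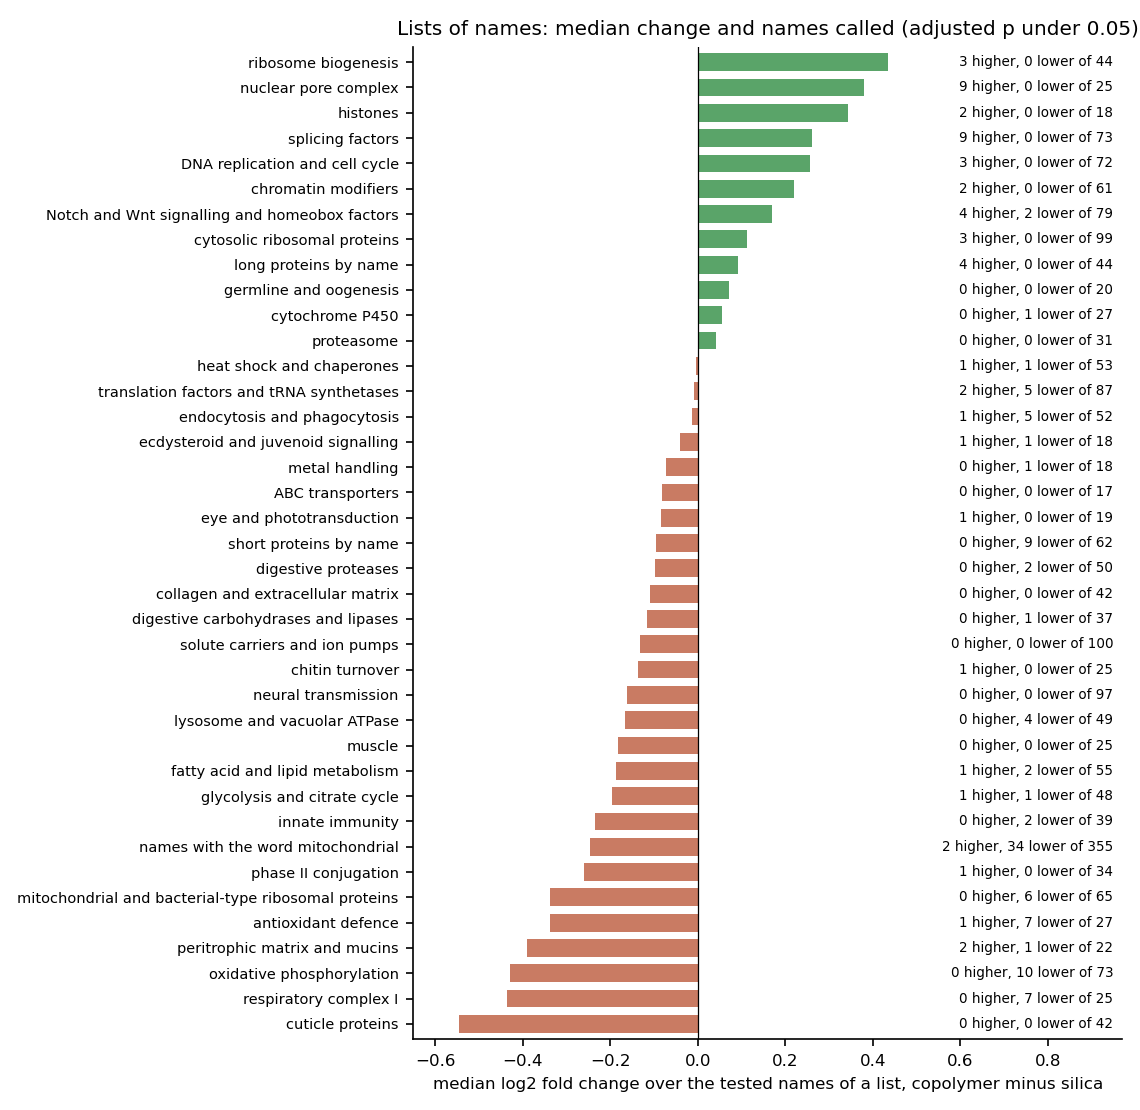
Bars give the median log2 fold change (copolymer minus silica) over the tested names of each list with at least 15 names, and the text at the right gives the names called in each direction. Respiratory complex I, with 7 of 25 lower, and the nuclear pore, with 9 of 25 higher, have the highest shares called in 1 direction, and cuticle proteins have the lowest median with 0 called. The complex I and nuclear pore lists were added after values were seen, so their rank rests in part on that choice. The complex I pattern also missed some NADH dehydrogenase names, none of them called. Antioxidant defence, with 7 of 27 lower, is close to complex I, so the order of these lists depends on the pattern.

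The largest fold changes fell on names with uneven libraries or very low values. Conserved protein arp2_g5262, of no described function, had CPM of 42.8, 39.1, 45.8, 36.9 and 39.3 with the copolymer and 0, 0, 0.6600, 0 and 0 with silica, while controls had 4.09, 0, 0, 0 and 29.8. It was present at an even level in all 5 copolymer libraries, listed at 0 in 4 silica libraries and in 3 controls, and high in control 5 (adjusted p = 0.0266). Conserved protein arp2_g1399 was at 0 in all copolymer libraries and at 0.602, 2.82, 0.5500, 0.479 and 0 in silica, at least 83.2-fold lower against a floor of 3 counts over the group and at least 38.1-fold without silica 2 (adjusted p = 0.0169). Vacuolar sorting protein vps13d (arp2_g6355), a lipid transfer protein, was also at 0 in all copolymer libraries and at 0.466, 0, 3.63, 0 and 0.267 in silica. It was at least 81.6-fold lower, or at least 17.1-fold without silica 3 (adjusted p = 0.0238).

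Several large rises rested on nano_high 4 and 5. Histone-lysine N-methyltransferase setd2, which marks transcribed chromatin, had CPM of 372, 717, 138, 2392 and 830.5 with the copolymer and 90.9, 139, 232, 262 and 139 with silica. The groups overlapped at nano_high 3, and controls spread from 251 to 1841 (2.37 ± 0.66 (SE; adjusted p = 0.0446)). Transcription factor Atf1 was at 1.79, 8.46, 1.62, 82.6 and 20.1 against 0.777, 1.22, 2.200, 2.58 and 3.47 CPM (3.59 ± 0.96 (SE; adjusted p = 0.0369)). A zinc finger name was at 0.732 to 9.91 against 0.383 to 0.935 CPM (2.42 ± 0.67 (SE; adjusted p = 0.0427)). Expressed protein arp2_g1170 was at 3.98, 8.05, 1.28, 102 and 835 with the copolymer and 0.427 to 4.002 with silica (6.41 ± 1.83 (SE; adjusted p = 0.0488)). Transcription factor Ovo 2, by contrast, was high in all copolymer libraries, at 218, 151, 231, 165 and 172 CPM against 32.1, 77.4, 145, 75.1 and 66.03 with silica. Its groups were separate, with nano_high 3 and 1 the highest (1.24 ± 0.28 (SE; adjusted p = 0.0228)).

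Large falls outside the core included peptidyl-prolyl isomerase Fkbp14, a folding enzyme of the endoplasmic reticulum. It had CPM of 3666, 1198, 1142, 1070.4 and 1433 with the copolymer and 1523, 3418, 16817, 3633 and 17422 with silica. Silica 3 and 5 were far above the rest and silica 1 lay below nano_high 1, so the groups overlapped (-2.33 ± 0.60 (SE; adjusted p = 0.0341)). The catalytic subunit of protein phosphatase 4 was at 0.859 to 3.11 against 3.47 to 9.35 CPM (-1.59 ± 0.39 (SE; adjusted p = 0.0267)), and meprin A subunit alpha, a metalloprotease, at 0.673 to 1.41 against 2.001 to 3.65 (-1.34 ± 0.30 (SE; adjusted p = 0.0202)).

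Against the vehicle controls, in the same fit, 761 names differed in the copolymer group (10.1%) and 53 in the silica group (0.701%). These 2 comparisons share the controls, and each shares libraries with the comparison of the particles, so their values are only set side by side. Chain 4L of complex I had a log2 fold change of -1.93 (adjusted p = 0.00266) for copolymer minus control and -0.19 (adjusted p = 0.728) for silica minus control. Glycine N-methyltransferase had -0.54 (adjusted p = 0.00341) and 0.19 (adjusted p = 0.245). For these names the silica libraries lay near the controls.

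Other names placed the controls between the particles. Notch (arp2_g5857) had a log2 fold change of 0.77 (adjusted p = 0.0745) for copolymer minus control and -0.98 (adjusted p = 0.0842) for silica minus control, so neither was called. Tumor necrosis factor alpha-induced protein 8 protein 3 had -0.21 (adjusted p = 0.157) and 0.42 (adjusted p = 0.0468), with the silica difference called. Cytoglobin had -0.57 (adjusted p = 0.0291) and 0.45 (adjusted p = 0.139). Epididymal secretory protein E1 had -0.17 (adjusted p = 0.367) and 0.35 (adjusted p = 0.103), with neither called. Fatty acid-binding protein had 0.21 (adjusted p = 0.280) and -0.41 (adjusted p = 0.0870), again with neither called. At 30S ribosomal protein S8 both differences from control were negative, -1.73 (adjusted p = 1.27e-05) and -0.65 (adjusted p = 0.0571).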

How the data were processed

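RNA of pooled whole Daphnia magna was made into poly-A selected stranded libraries, per the labels' protocols, from 125 ng of total RNA and sequenced in pools of 8 libraries. The membership of the pools is not stated, so that batch could not be examined. Salmon 0.12.0 and R 3.4.3 were used by the authors, per the submitters' processing notes, and their reference was not given in those notes. The deposited table, called normalized by the authors, holds estimated counts for 7784 names, whose totals per library differ, and the values were treated as estimated counts not scaled to depth.

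Values were rounded to whole numbers. A name was tested if 5 or more libraries had a value of 1 or more (7564 names, leaving out 220) with edgeR 4.0.16 in R 4.3.3 (TMM scaling, glmQLFit and glmQLFTest, 1 mean per group, all 20 libraries, two-sided, Benjamini-Hochberg over all names tested, threshold 0.05). The fit of all 20 libraries shares 1 estimate of the spread. The SE is the log2 fold change divided by the root of F. CPM used TMM-scaled totals, and log2 CPM a prior count of 2. Alternatives used limma 3.58.1 and DESeq2 1.42.0, other scalings and filters, thinning to the shallowest library, the replicate number as a block and leaving out libraries. Scripts were tested on simulated data. Counting error per name is larger at lower depth, and the shallowest library is in the silica group. The spread between libraries adds to it, and floors cover counting error only.

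Named genes were the 10 largest rises and the 10 largest falls with an informative description and a group mean of at least 1 CPM, the 10 smallest p-values, and up to 3 called members per list (or the member with the smallest p). Further list members and the 65 names held in every leave-one-out fit were chosen after their values were seen. The members and lists were chosen with earlier results of these data known, and the lists for complex I, the word mitochondrial, nuclear pore, ribosome biogenesis, chromatin modifiers, short proteins and long proteins were added, and patterns edited, after values were seen. Lists are patterns on the deposited names and miss members with other descriptions. No sequence is shown.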

Additional observations from a re-analysis of the deposited data

Results flagged for a closer look

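Values far from the other 4 of their group were searched for among 170 names and 4 library measures in the copolymer and silica groups, 348 groups in all, of which 21 held one. Chance gives about 1 in 20 groups. In the copolymer group, nano_high 5 was far above the rest for cyclin-E1 (101 CPM against 19.6 to 36.9), eyes absent (84.5 against 34.2 to 46.6), an orphan neurotransmitter transporter (114 against 50.6 to 62.4), Nup153 (121 against 72.7 to 86.4), son of sevenless (65.8 against 54.1 to 56.8) and expressed protein arp2_g1170 (835 against 1.28 to 102). Nano_high 4 was far above the rest for Atf1 (82.6 against 1.62 to 20.1) and glycine N-methyltransferase (117 against 90.6 to 98.1). Nano_high 1 stood out for Fkbp14 (3666 against 1070.4 to 1433), and nano_high 2 was low for Tigar B (11.2 against 12.3 to 12.6).

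In the silica group, silica 1 stood apart in its total (54862334 against 7912434 to 18222656 estimated counts), in summed collagen and matrix CPM (21035 against 11530 to 13788), in summed muscle CPM (37498 against 25715 to 28947) and, at the low end, in heterogeneous nuclear ribonucleoprotein A3 (37.1 CPM against 48.0 to 51.9). Silica 5 was high for ATPase inhibitor mai-2 (3.34 against 1.07 to 1.53) and low for AP-2 sigma (19.6 against 23.3 to 24.2). Silica 4 was high for cuticular protein 27 precursor (7.37 against 1.60 to 2.04) and low for di-domain hemoglobin (2398 against 3065 to 3274). Silica 3 was high for vps13d (3.63 against 0 to 0.466) and for conserved protein arp2_g5262 (0.660 against 0), and silica 2 for conserved protein arp2_g1399 (2.82 against 0 to 0.602).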

How the results depend on the processing

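The 405 names called (179 higher, 226 lower) kept their sign under all 23 alternative settings, except 1 name without a value under a filter of at least 1 CPM, but their number did not hold. Called names numbered 36 (16 higher, 20 lower) in a fit of the copolymer and silica libraries alone, 919 (512, 407) with DESeq2, 256 (111, 145) after thinning to the shallowest library, and 24 (11, 13) without nano_high 4 and 5. Leaving out 1 library gave 77 to 648 called, 25 to 370 higher and 52 to 278 lower. Upper-quartile scaling gave 119 higher. Chosen after seeing the data, a log2 library total covariate gave 14 (2 higher, 12 lower), and leaving out silica 1 with nano_high 4 and 5 gave 5 (1, 4). Other scalings, limma-voom and filters gave 389 to 455. The list medians of complex I, oxidative phosphorylation, antioxidant, nuclear pore and splicing names reversed under none of these settings. The difference in library totals ran from 2.25-fold to 4.34-fold when 1 library was left out, and without silica 2, 3, 4 or 5 its exact permutation p was 0.0714. Counting error is larger at lower depth, and the spread between libraries adds to it. The cause of these changes was not tested.

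The labels number the replicates 1 to 5 in each group. Same-numbered libraries did not deviate together in every pair (correlations 0.377, 0.045, -0.131, 0.013 and 0.276), and 2 of 5 correlated best with their own number. With 5 pairs, these correlations cannot settle whether the numbers pair the samples. With the replicate number as a block, 267 names were called in all 20 libraries (106 higher, 161 lower) and 1 in the 10 libraries (0 higher, 1 lower). Without the block, 405 and 36 were called.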
